A study of Mus musculus with 21 samples.

Results

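The genes described here are 35 mouse genes that act in mitosis or mark proliferating cells, taken by exact match of the gene symbol in the deposited table to a fixed list. All 35 were found among 32643 genes, and all 35 were among the 20254 genes with enough reads to be tested. They were measured in whole testes of 21 individual mice at postnatal day 10, all on a background of 50% 129sv and 50% C57Bl6. The groups were KO mice, labelled as lacking FXRα (a nuclear receptor for bile acids, product of the gene Nr1h4), given vehicle, BPA (bisphenol-A) or stigmasterol, with 3 animals per treatment, and wild-type (WT) mice given vehicle, BPA or stigmasterol, with 4 animals per treatment. Bisphenol-A is a plastics chemical with hormone-like activity and stigmasterol is a plant sterol; the doses, routes and durations of treatment, and the litters, were not given in the sources used here. No Cre driver, cell type or exon is named for the KO allele.

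Cells enter mitosis when cyclin A and cyclin B proteins activate the kinase CDK1. Kinetochore proteins then tie chromosomes to the spindle, a checkpoint holds the anaphase-promoting complex until all are attached, and a central spindle directs cleavage of the cell. In the testis of a mouse at this age spermatogonia divide, the first germ cells enter meiosis, and Sertoli cells, the somatic nurse cells of the tubules, are still proliferating. In bulk tissue, fewer cells of a type and less RNA per cell cannot be told apart, and this holds for every level given below.

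The libraries held 35459523 to 61498855 counts, and the 35 genes took 0.321% to 0.383% of the counts in KO testes and 0.263% to 0.396% in WT testes. Testis markers were present in all 21 libraries: Sox9 of Sertoli cells at 141 to 274 CPM (counts per 1000000 counts of the library, scaled between libraries by TMM factors), Ddx4 of germ cells at 129 to 268 CPM and Cyp17a1 of Leydig cells at 23.8 to 184 CPM. Nr1h4, the targeted gene, was at 0.172 to 0.492 CPM in KO testes and 0.241 to 0.868 CPM in WT testes, so the genotypes overlapped. The count covers the whole gene, and which exons the allele lacks is not stated in the labels, so this level does not test the genotype. In 9 libraries Cdh16, a gene of epididymal epithelium, reached 10 CPM: 6 of 9 KO and 3 of 12 WT. Of the 21 animals, WT vehicle T79 had the highest mean level of the 35 genes and WT vehicle T81 the lowest (0.24 and -0.26 from the mean on the log2 scale). T79 was the only single animal whose omission changed how many of the 35 were called, and those counts are given both ways.

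Per kilobase of the gene length in the deposited table, the level was highest for Top2a, the topoisomerase that untangles chromosomes (461 ± 85.9 CPM per kb, SD, n = 21), then for Racgap1 (228 ± 20.8) and Bub1 (191 ± 58.1). The lowest level per kb was that of Cenpe, a kinetochore motor (14.3 ± 1.79), after Anln (17.9 ± 2.18). Neighbours in the order differed by more than the larger SD of the pair in 6 of 34 cases (Top2a over Racgap1, Bub1b over Cdc20, Cdc20 over Kif2c, Aurkb over Ccnb1, Tpx2 over Incenp and Anln over Cenpe), and all 35 genes were above the median of the tested genes on this scale, Cenpe at percentile 59.8 and Top2a at percentile 99.1. The order depends on the length used. For 19 of the 35 genes the deposited length was within 5% of the median length of the annotated transcripts, and for 10 it was under 1 kb, although no gene of the set has a longest annotated transcript under 1 kb. Per kb of the longest transcript Top2a again came first (70.9 ± 13.2 CPM per kb), followed by Cdc20 (48.8 ± 4.57) and Racgap1 (39.1 ± 3.58). On that scale Mad2l1 came last (8.2 ± 0.635), after Kif4 (9.87 ± 1.08). No gene was limited by depth, since the smallest count in any library was 1216.

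The comparison of KO with WT asks whether loss of FXRα changes these genes. Averaged over the treatments, 1 of the 35 genes passed the test: Racgap1 was lower in KO testes. The other 34 did not pass. Over all genes tested, 13.9% were called in either direction in that comparison and 7.07% were called lower (edgeR's quasi-likelihood test, Benjamini-Hochberg adjusted p under 0.05), so the share called among the mitosis genes was below the background. Their median log2 fold change, KO over WT, was 0.03, against 0.01 for all tested genes, and their median absolute log2 fold change was 0.06, against 0.12. Leaving out single animals moved the median of the 35 between -0.00999 (without WT vehicle T81) and 0.0647 (without WT vehicle T79), and it was 0.08 without the libraries where Cdh16 reached 10 CPM, so its sign is not settled. The 95% intervals of 34 genes lay within 0.5 on either side of 0. The widest was that of Bub1 (log2 fold change 0.23, interval -0.13 to 0.59).

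In vehicle animals no member passed, against 2.92% of all genes; 4 had an unadjusted p under 0.05 by edgeR. These were Espl1, the protease separase that cuts cohesin (log2 fold change 0.38, adjusted p = 0.155), Cenpf, a kinetochore protein (0.34, adjusted p = 0.227), Ube2c, the ubiquitin-conjugating enzyme of the anaphase-promoting complex (-0.36, adjusted p = 0.207), and Racgap1 (-0.12, adjusted p = 0.226). Under BPA no member passed either, against 0.859% of all genes, and none had an unadjusted p under 0.05. Under stigmasterol 1 of 35 passed, Racgap1 with a lower level, against 7.21% of all genes in either direction and 3.34% called lower. DESeq2 and limma-voom called the same number of the 35 in each of these 4 comparisons. Without WT vehicle T79 the vehicle comparison called 1 member, Espl1 (log2 fold change 0.53, adjusted p = 0.0364, edgeR). Over all genes 986 were then called, against 592 with all animals. Of the 35, 12 then had an unadjusted p under 0.05. The share of all genes under that unadjusted p is not given here, so such counts, here and below, are not read as a result about the 35. The median log2 fold change of the 35 under vehicle was 0.0265 with all animals, 0.149 without T79 and -0.0568 without T81. Without T81, and also with only the vehicle animals fitted, 0 of the 35 had an unadjusted p under 0.05.

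**Figure D1:**
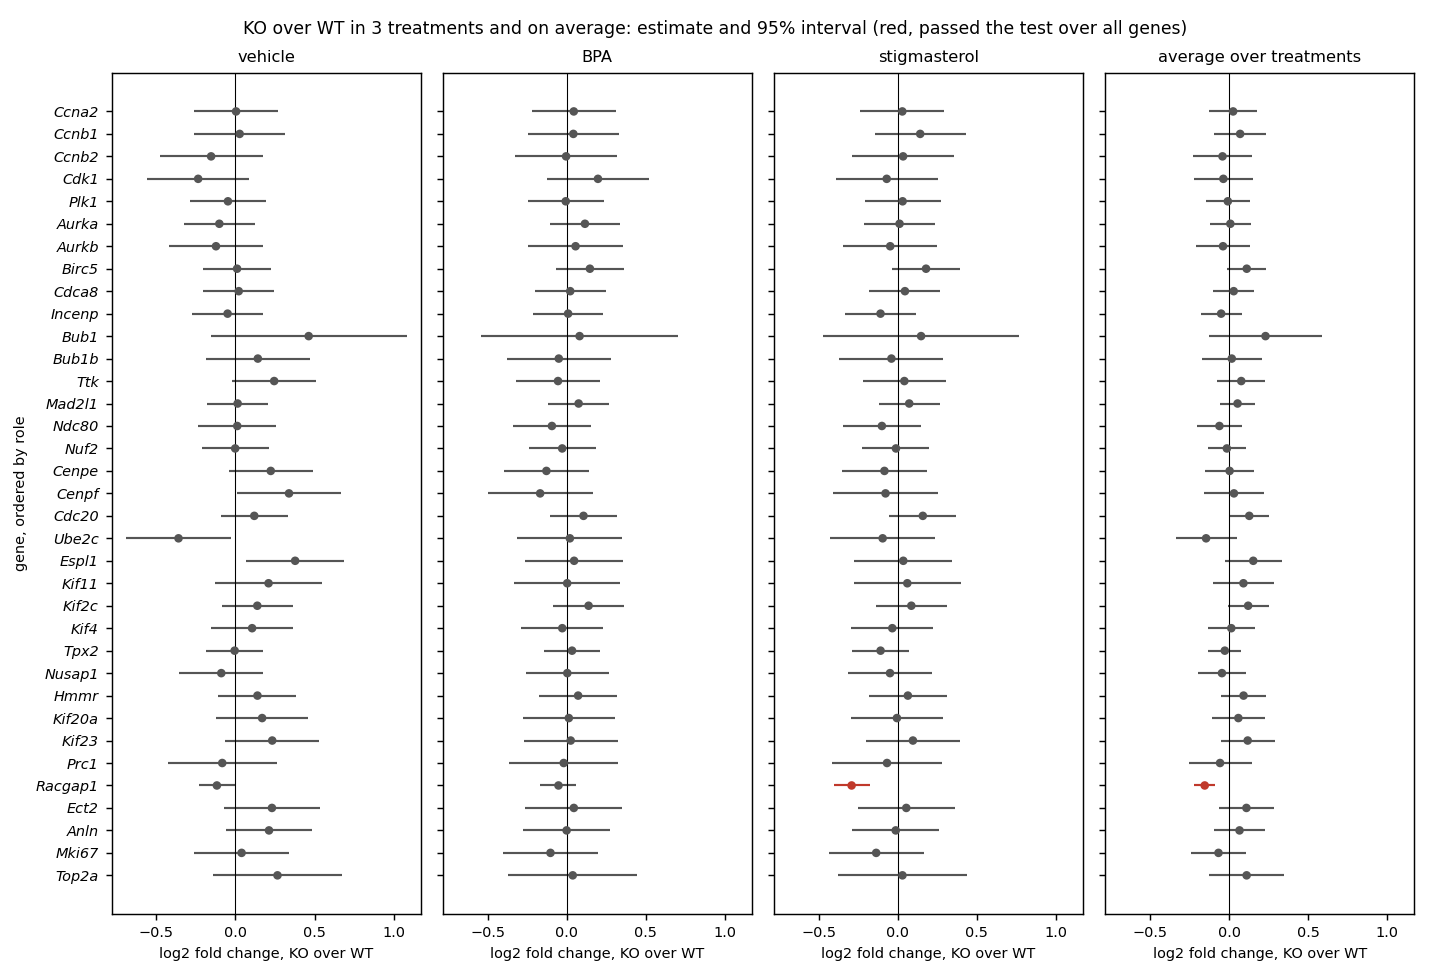
Log2 fold change, KO over WT, of each of the 35 genes (points) with its 95% interval (lines) in vehicle, BPA and stigmasterol animals and averaged over the 3 treatments; genes run down the page by role and red marks those that passed the test over all 20254 genes. Racgap1 is the one in red, at -0.29 under stigmasterol and -0.15 on average, and Bub1 has the widest interval in each panel.

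Racgap1 (chr15:99620496-99651656, mm10) encodes a subunit of centralspindlin, which bundles the central spindle and is needed for cytokinesis. Racgap1 had 178, 172 and 160.2 CPM in KO vehicle testes, against 176, 188, 183 and 191 CPM in WT vehicle testes. Under BPA it had 158, 154 and 167 CPM in KO testes, against 174, 166, 161 and 163 CPM in WT testes. Under stigmasterol it had 159, 161 and 167 CPM in KO testes, against 196, 185, 201 and 213 CPM in WT testes. Under stigmasterol every KO value lay below every WT value; under vehicle and BPA the genotypes overlapped. The log2 fold change, KO over WT, under stigmasterol was -0.29 with a 95% interval of -0.41 to -0.18 (adjusted p = 0.00386, edgeR). Averaged over treatments it was -0.15 ± 0.03 (SE; adjusted p = 0.00326), with 154 to 178 CPM in 9 KO testes and 161 to 213 CPM in 12 WT testes. Racgap1 varied least of the 35 between replicate animals, with a biological coefficient of variation of 5.89%, against a median of 12.1% for the 35 and 15.2% for all tested genes. The call held when any 1 animal was left out, with adjusted p of 0.00244 to 0.021 under stigmasterol and 0.00151 to 0.00871 on average. It was lost when the 9 libraries where Cdh16 reached 10 CPM were left out, which leaves 1 KO animal per treatment: the log2 fold changes were then -0.32 (adjusted p = 0.354) and -0.15 (adjusted p = 0.33), as large as with them. It was also lost under stigmasterol when only the 7 stigmasterol animals were fitted (-0.29, adjusted p = 0.0749).

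Sertoli cell markers moved with the genotype beside Racgap1. Of 20 Sertoli markers, 11 were called lower in KO testes and 0 higher on average, against 7.07% of all genes called lower. Called lower were 5 under vehicle and 0 under BPA, against 2.92% and 0.859% of all genes in either direction. Under stigmasterol 1 was called lower, close to the 3.34% of all genes. The median log2 fold change of the 20 was -0.427 under vehicle, -0.0956 under BPA and -0.396 under stigmasterol. Their summed level was 6332 to 7532 CPM in KO testes and 6795 to 11470 CPM in WT testes. None of the 20 was at 0. Epididymis and efferent duct markers were higher in KO testes (9 of 11 called on average, 7 of 11 under stigmasterol), with a summed level of 104 to 581 CPM in KO testes and 57.9 to 149 CPM in WT testes. Fat cell markers were higher too (6 of 8 called on average). Over all genes 13.9% were called in either direction on average and 7.21% under stigmasterol. The part of these in the Racgap1 difference was not tested. For treatment over vehicle in WT testes the Racgap1 log2 fold changes were -0.15 for BPA (adjusted p = 0.118 by edgeR and 0.0482 by DESeq2) and 0.11 for stigmasterol (adjusted p = 0.592 by edgeR). The difference between genotypes in the response to stigmasterol was -0.18 (unadjusted p under 0.05, adjusted p = 0.523, edgeR). It did not pass, so the genotype difference is not shown to depend on stigmasterol.

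Among the genes that start mitosis, Cdk1 and Ccnb1 encode the kinase and a cyclin partner, and Plk1 a kinase of centrosomes and kinetochores. Cdk1 had 54.8, 52.4 and 53.4 CPM in KO vehicle testes, against 55.4, 50.4, 75.7 and 70.7 CPM in WT vehicle testes. In BPA animals the values were 56.9, 67.6 and 64.2 CPM in KO testes, against 53.3, 58.7, 51.05 and 56.3 CPM in WT testes. In stigmasterol animals the values were 50.1, 56.5 and 60.6 CPM in KO testes, against 75, 42.8, 51.8 and 64.5 CPM in WT testes. The KO values lay inside the WT range under vehicle and stigmasterol, and under BPA 2 of 3 KO values lay above all 4 WT values. None of these differences passed: the log2 fold changes, KO over WT, were -0.24, 0.20 and -0.07 under vehicle, BPA and stigmasterol. Ccnb1 had 49.4, 57.7 and 58.5 CPM in KO vehicle testes, against 45.2, 52.1, 69.7 and 49.7 CPM in WT vehicle testes. KO testes under BPA held 64.8, 60.3 and 58.7 CPM, against 55.3, 64.5, 51.4 and 66.7 CPM in WT testes. KO testes under stigmasterol held 54.6, 66.3 and 56.2 CPM, against 65.4, 46.7, 52.5 and 49.5 CPM in WT testes. The ranges overlapped in every treatment, and T79 was the highest WT vehicle animal. Plk1 had 42.5, 48.4 and 43.6 CPM in KO vehicle testes, against 41.1, 44.4, 57.9 and 41.98 CPM in WT vehicle testes. Under BPA it had 49.03, 48.6 and 44.99 CPM in KO testes, against 49.6, 45.2, 41.5 and 54.6 CPM in WT testes. Under stigmasterol it had 42.2, 49.1 and 48.6 CPM in KO testes, against 52.2, 41.4, 44.2 and 44.8 CPM in WT testes. Again T79 was the highest, and the KO values lay inside the WT range in every treatment. Averaged over treatments, the log2 fold changes of the 6 genes of this role ran from -0.04 to 0.07, with 3 of 6 above 0, and none passed.

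Aurkb encodes the kinase of the chromosomal passenger complex, which corrects faulty spindle attachments, together with Incenp, Cdca8 and Birc5 (survivin). Aurkb had 41.1, 47.2 and 47.4 CPM in KO vehicle testes, against 41.7, 46.8, 63.7 and 44.9 CPM in WT vehicle testes. In BPA animals the values were 49.99, 57.6 and 54.3 CPM in KO testes, against 52.97, 53.2, 45.7 and 55.8 CPM in WT testes. In stigmasterol animals the values were 42.3, 50.4 and 49.5 CPM in KO testes, against 62.9, 40.4, 44.2 and 48.5 CPM in WT testes. The genotypes overlapped in every treatment and WT vehicle T79 held the highest value of all. Averaged over treatments the 4 genes of the complex had log2 fold changes, KO over WT, of -0.05 to 0.11, and none passed. Birc5 was highest of them under stigmasterol (0.18).

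Bub1 and Bub1b encode spindle checkpoint proteins of the kinetochore, Bub1b the one known as BubR1. Bub1 had 183, 128 and 109 CPM in KO vehicle testes, against 133, 112, 98.7 and 62.4 CPM in WT vehicle testes. KO testes under BPA held 139.7, 94.01 and 77.4 CPM, against 104, 95.5, 81.4 and 111 CPM in WT testes. KO testes under stigmasterol held 180.3, 137 and 96.95 CPM, against 87.5, 188, 140.0 and 83.4 CPM in WT testes. The spread was widest in WT stigmasterol testes (SD 49.5 CPM, n = 4) and narrowest in WT BPA testes (SD 12.8 CPM, n = 4), and the highest animal of all, WT stigmasterol T98, had 3.02 times the level of the lowest, WT vehicle T81. Bub1 had the largest biological coefficient of variation of the 35 (27%), and its log2 fold change under vehicle, KO over WT, of 0.46 had an interval from -0.16 to 1.08 (adjusted p = 0.38). Bub1b had 89.7, 105 and 102 CPM in KO vehicle testes, against 69.3, 87.99, 122 and 78.98 CPM in WT vehicle testes. Under BPA it had 107, 102 and 98.1 CPM in KO testes, against 98.03, 111, 92.96 and 123 CPM in WT testes. Under stigmasterol it had 92.6, 105 and 86.9 CPM in KO testes, against 123, 90.8, 92.96 and 83.1 CPM in WT testes. The KO values lay inside the WT range in every treatment. Over the 8 kinetochore and checkpoint genes, none passed, and averaged log2 fold changes ran from -0.06 to 0.23 with 6 of 8 above 0.

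Cdc20 encodes the activator of the anaphase-promoting complex that the checkpoint restrains. Cdc20 had 82.5, 91.7 and 95.7 CPM in KO vehicle testes, against 79.2, 81.6, 101 and 69.5 CPM in WT vehicle testes. In BPA animals the values were 96.2, 92.7 and 88.7 CPM in KO testes, against 87.8, 87.5, 74.8 and 93.7 CPM in WT testes. In stigmasterol animals the values were 93.2, 91.9 and 95.4 CPM in KO testes, against 91.2, 86.4, 83.2 and 74.5 CPM in WT testes. Under stigmasterol all 3 KO values lay above all 4 WT values, by less than 1 CPM between the nearest; under vehicle and BPA the genotypes overlapped. The log2 fold change averaged over treatments was 0.13 (unadjusted p = 0.0416, adjusted p = 0.161, edgeR). Without WT vehicle T79 it passed, at 0.16 with adjusted p = 0.0294. Cdc20 and Ube2c, which act with the same complex, stood on opposite sides of 0 on average (0.13 and -0.15), and neither passed.

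Mki67 encodes the Ki-67 protein that coats mitotic chromosomes and is the usual marker of cycling cells. Mki67 had 370.5, 301 and 280.2 CPM in KO vehicle testes, against 343, 266, 375 and 252 CPM in WT vehicle testes. KO testes under BPA held 337, 318 and 293 CPM, against 358, 354, 269 and 374 CPM in WT testes. KO testes under stigmasterol held 332, 310.0 and 299.7 CPM, against 347, 405, 342 and 288 CPM in WT testes. The genotypes overlapped in every treatment. Top2a had 482, 395 and 332 CPM in KO vehicle testes, against 382, 338, 369.8 and 250.4 CPM in WT vehicle testes. Under BPA it had 421, 337 and 301 CPM in KO testes, against 360.1, 348, 276 and 390.5 CPM in WT testes. Under stigmasterol it had 490.0, 402 and 315 CPM in KO testes, against 352, 512, 418 and 295 CPM in WT testes. These ranges overlapped as well, and KO vehicle T1, KO BPA T25 and KO stigmasterol T10 were the highest of their groups for both genes. Averaged log2 fold changes, KO over WT, were -0.07 for Mki67 (interval -0.24 to 0.11) and 0.11 for Top2a (interval -0.13 to 0.35). Spindle motors and microtubule binders (Kif11, Kif2c, Kif4, Tpx2, Nusap1, Hmmr) had averaged log2 fold changes of -0.05 to 0.12, and the central spindle and cytokinesis genes -0.15 to 0.12, with Racgap1 at the low end.

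**Figure D2:**
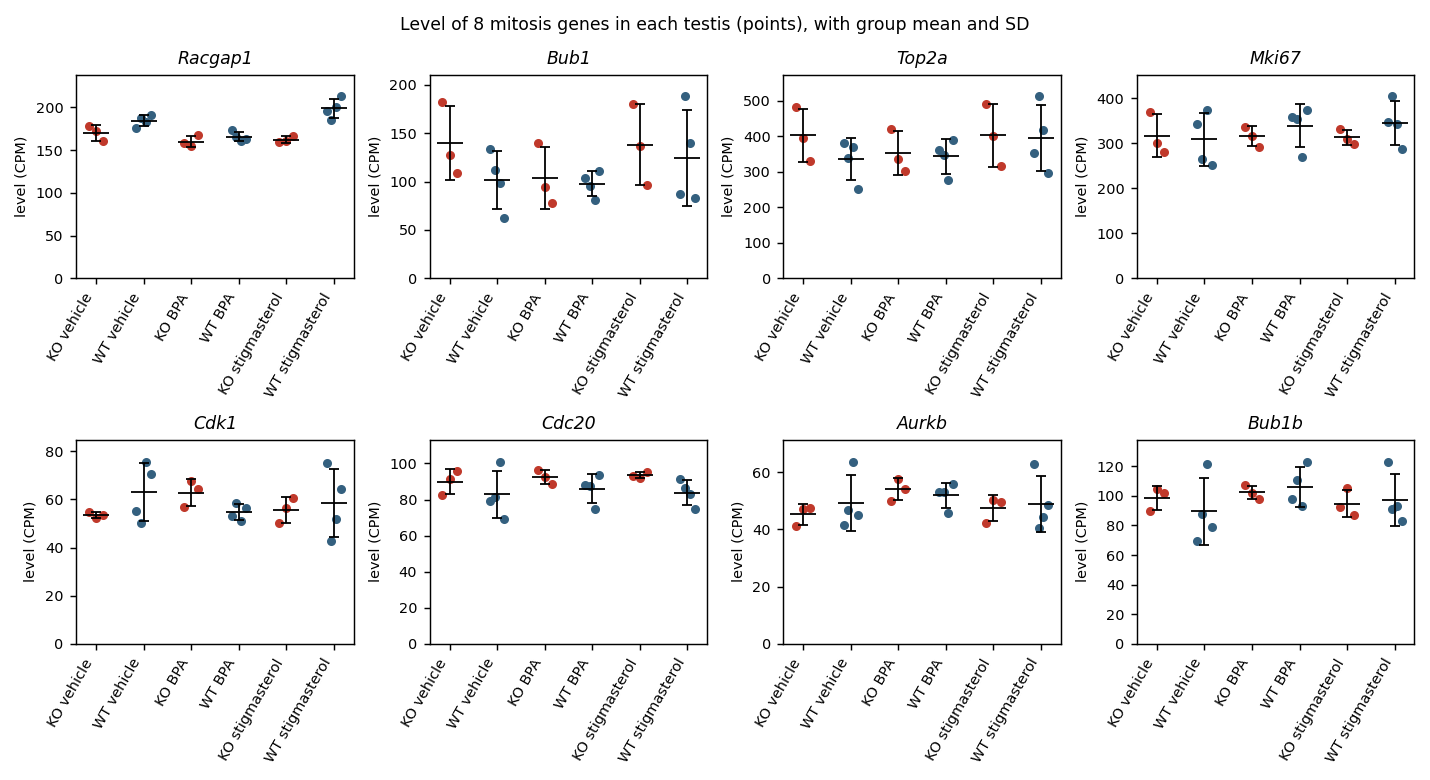
Level in CPM of 8 of the genes in each of the 21 testes (points; red KO, blue WT) with the group mean (wide bar) and SD (whiskers), n = 3 per KO group and 4 per WT group. Racgap1 under stigmasterol is the panel pair where KO points (159 to 167) lie clear below WT points (185 to 213); Bub1 and Top2a spread widely within each group.

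The comparisons of each treatment with vehicle ask whether BPA or stigmasterol changes these genes in either genotype. No member passed in any of them by edgeR or limma-voom. In WT testes the background was 0% of genes called for BPA over vehicle and 0.00494% for stigmasterol over vehicle. In KO testes it was 0.0148% for BPA and 0% for stigmasterol. Members with an unadjusted p under 0.05 numbered 2 for BPA and 2 for stigmasterol in WT testes, and 0 for each in KO testes. Without T79 the WT counts were 15 for BPA and 11 for stigmasterol, and the median log2 fold changes of the 35 were 0.185 and 0.193, against 0.0534 and 0.0745 with all animals. Without WT vehicle T81 the counts were 2 and 1, and the medians -0.00809 and 0.0204. Without the libraries where Cdh16 reached 10 CPM the medians were -0.0341 and 0.0158, so the sign of the BPA median is not settled. Without WT BPA T61, in which Alb, a liver gene, reached 577.9 CPM, the count for BPA was 8 and the median 0.129; the part of this in the count was not tested. With only the groups compared, BPA in KO testes had 5. DESeq2 called 1 member, Racgap1, for BPA in WT testes and 0 in the other 3 comparisons. Log2 fold changes ran from -0.20 (Cdk1) to 0.28 (Espl1) for BPA in WT testes and from -0.19 (Ube2c) to 0.30 (Bub1) for stigmasterol in WT testes. In KO testes they ran from -0.43 (Bub1) to 0.26 (Aurkb) for BPA and from -0.14 (Cenpf) to 0.12 (Birc5) for stigmasterol. The count for BPA in WT testes depended on T79: without it 3 members passed by edgeR, Bub1b (0.43, adjusted p = 0.0481), Cenpe (0.41, adjusted p = 0.0313) and Kif20a (0.40, adjusted p = 0.0429). Over all genes 1321 were then called, against 0 with all animals, so the rise was not confined to the 35.

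In the authors' deposited table of treatment against vehicle, 0 of the 35 genes had an adjusted p under 0.05 in any of the 4 comparisons. Its smallest value was 0.05, as rounded there, for Racgap1 in WT BPA over WT vehicle. The tests of whether the 2 genotypes differ in their response called 0 of the 35 for BPA, against 0.0148% of all genes, and 0 for stigmasterol, against 0.00987%. Each had 1 member with an unadjusted p under 0.05, and 5 without T79. Without T81 the numbers were 0 for BPA and 1 for stigmasterol. The median difference in response of the 35 for BPA was -0.0125 with all animals, -0.129 without T79 and 0.0671 without T81. For stigmasterol these medians were -0.0759, -0.187 and -0.0168. With all animals the stigmasterol member was Racgap1 (adjusted p = 0.523, edgeR). The BPA member was Cenpf, whose response in KO minus that in WT was -0.51 on the log2 scale (adjusted p = 0.554, edgeR). Cdk1 was at the other end (0.43), and for stigmasterol the ends were Cenpf (-0.42) and Ube2c (0.26). All these comparisons share their vehicle animals.

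The genes varied together from animal to animal. The correlation (Pearson r of log2 CPM over 21 animals) had a median of 0.59 over the 595 pairs of the 35 genes, and it was above 0.5 in 357 pairs and below 0 in 72. With group means removed the median was 0.68. The median r of these genes with the rest of the tested genes was -0.0028. These values are descriptions: the points share libraries and scaling, and no p is given. Averaged over the 35 genes, the deviation from each gene's mean ran from -0.26 (WT vehicle T81) to 0.24 (WT vehicle T79) on the log2 scale, and from -0.09 (KO BPA T117) to 0.11 (KO BPA T25) among KO animals. So the highest and the lowest animal were both in the WT vehicle group. Anln, a contractile ring scaffold, followed the others most closely (median r 0.73 with the other 34), and Racgap1 least (-0.14).

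**Figure D3:**
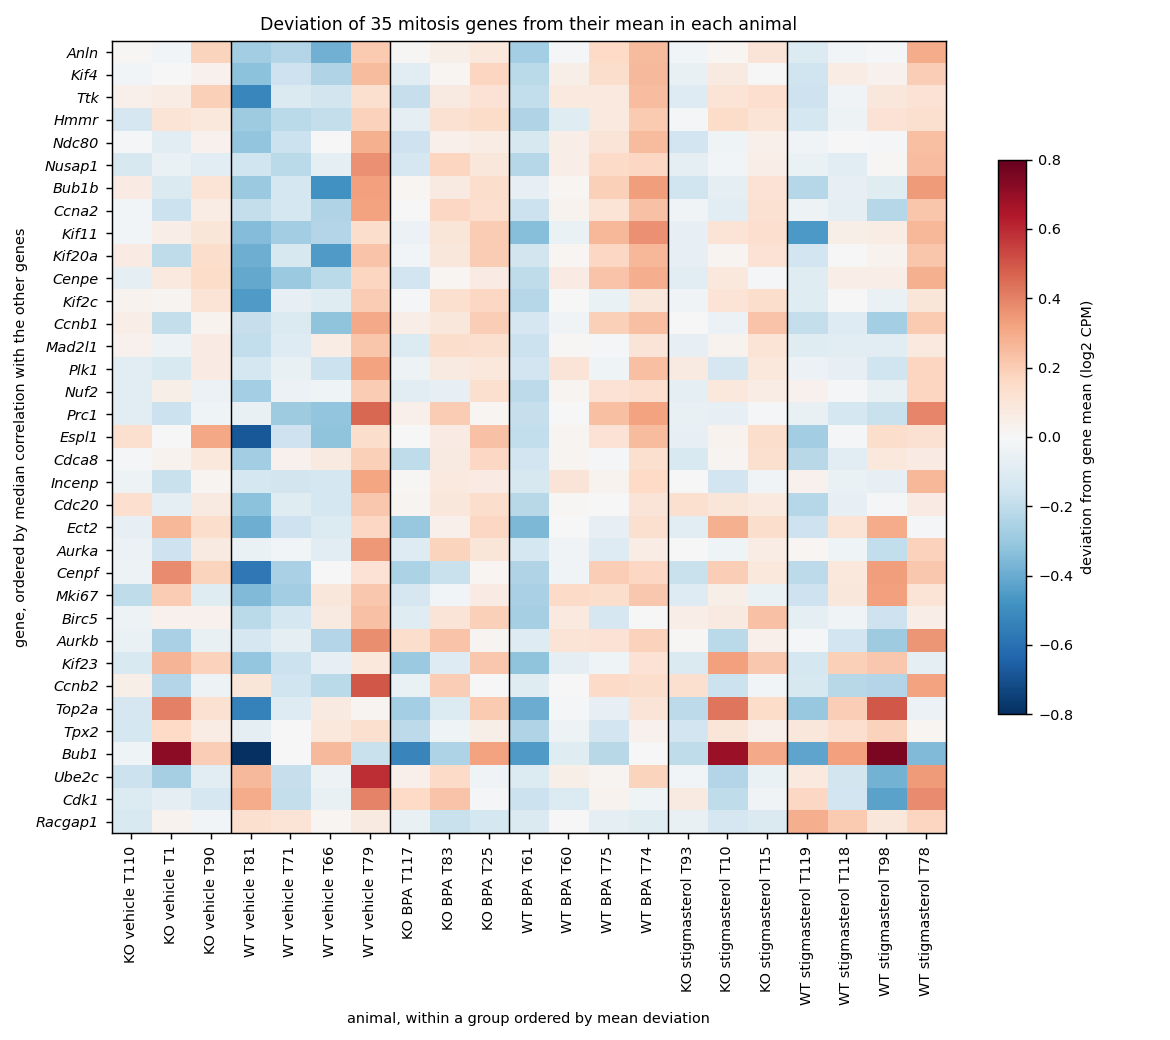
Deviation of each gene (rows) from its own mean over 21 animals (columns), in log2 CPM, with KO and WT groups side by side for each treatment and animals of a group ordered by their mean deviation. Most rows share the colour of their column, from blue in WT vehicle T81 to red in WT vehicle T79. Bub1, Ube2c, Cdk1 and Racgap1 at the bottom follow least. Even so, Cdk1 and Ube2c were highest in T79 and Bub1 was lowest in T81.

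Within the set, 2 small blocks of genes that varied together are described, chosen after the values were seen. Pairs outside them were also close, such as Ccnb1 with Ccna2 (r = 0.943) and Kif20a with Bub1b (0.939). Top2a varied with Bub1 over animals (r = 0.955), Ect2 with Kif23 (0.955) and Top2a with Ect2 (0.933). Ect2 acts in cleavage of the cell, and Kif23 is the kinesin partner of Racgap1 in centralspindlin. The other block held Cdk1 with Ube2c (0.89) and Ube2c with Ccnb2 (0.86), a B-type cyclin. Ccnb2 was closer still to Prc1 (0.882) and Aurkb (0.876), outside the blocks. Between Bub1, Top2a, Ect2 and Kif23 on one side and Cdk1, Ube2c and Ccnb2 on the other, r ran from -0.68 (Bub1 with Cdk1, the lowest of the 595 pairs) to -0.07 (Ect2 with Ccnb2). The values of Bub1 were the most negative, and those of Ect2 and Kif23 were weak, from -0.38 to -0.07.

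Each tested gene was also set against a score per animal for each of 13 marker lists, the mean deviation of the list's genes on the log2 scale. This gave 263302 relations over 21 animals, with Benjamini-Hochberg adjustment over all of them; a relation counted as called where both Pearson's r and Spearman's rho had an adjusted permutation p under 0.05. The family was added after the data were seen. For the meiotic prophase score 5 of 35 genes were called positive, against 12.6% of all genes, and 4 negative, against 11.2%. These shares are close to the background, so the counts show nothing particular to the 35 genes, and the relations below describe single genes. Bub1 gave the strongest: r = 0.97 and rho = 0.96 (both with the smallest permutation p that 100000 draws can give, 1e-05; adjusted p = 0.000534 and 0.000678). Bub1 held r = 0.99 within the 9 KO animals, 0.95 within the 12 WT animals, 0.95 without the 2 animals farthest from the median score, and 0.96 with group means removed. Top2a (r = 0.86, rho = 0.82), Kif23 (0.77, 0.74), Ect2 (0.71, 0.66) and Tpx2 (0.61, 0.61) were called in the same direction.

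Called negative with the meiotic score were Cdk1 (r = -0.78, rho = -0.73, adjusted permutation p = 0.00215 and 0.00726), Ube2c (-0.75, -0.80), Ccnb2 (-0.67, -0.67) and Aurkb (-0.66, -0.64). Without the 2 farthest animals, Cdk1 had r = -0.69, Ube2c -0.68, Ccnb2 -0.65 and Aurkb -0.77. Both signs held within KO and within WT animals for all 9 called genes, from 0.54 to 0.99 for the positive ones and from -0.84 to -0.59 for the negative ones. The undifferentiated spermatogonia score had the opposite sign for Ccnb2 (r = 0.70, rho = 0.69) and Aurkb (0.69, 0.65), the 2 called positive, against 2.24% of all genes; none was called negative, against 3.19%. The differentiating spermatogonia score called 4 positive and 2 negative (backgrounds 11.9% and 10.3%), and the pan germ cell score 4 positive and 1 negative (11% and 9.37%), again no more than about the background. Bub1, Top2a, Kif23 and Ect2 were the positive ones in both, at r of 0.72 to 0.89, and these scores follow the meiotic one (r = 0.93 and 0.90). The summed level of the meiotic markers ran from 1037 to 2783 CPM in KO testes and from 740.0 to 3187 CPM in WT testes, and 0 of 22 were called between genotypes.

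The Sertoli score went the other way for most genes. It called 7 of 35 negative, against 3.24% of all genes, and 1 positive, against 6.04%. Negative were Cdc20 (r = -0.85, rho = -0.73, adjusted permutation p = 0.000867 and 0.00708), Kif11 (-0.79, -0.69), Hmmr (-0.78, -0.72), Kif2c (-0.75, -0.68), Ttk (-0.75, -0.61), Anln (-0.68, -0.64) and Ccnb1 (-0.63, -0.63). These 7 relations lay within WT animals, at r of -0.89 to -0.71, and were weak among the 9 KO animals, at -0.52 to 0.12; the difference between genotypes was not tested. The score itself spanned less in KO testes (-0.34 to -0.05) than in WT testes (-0.24 to 0.44). Without the 2 animals farthest out, WT vehicle T81 and WT stigmasterol T119, the 7 had r of -0.74 to -0.57. Racgap1 was the one called positive (r = 0.73, rho = 0.76, adjusted permutation p = 0.0047 and 0.00486). It had r = 0.52 within KO and 0.58 within WT animals, 0.62 without the 2 farthest animals, and 0.36 with group means removed. The other 8 lists (Leydig, peritubular myoid, endothelial, macrophage, epididymis, liver, fat and red blood cell markers) gave no called relation with any of the 35.

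**Figure D4:**
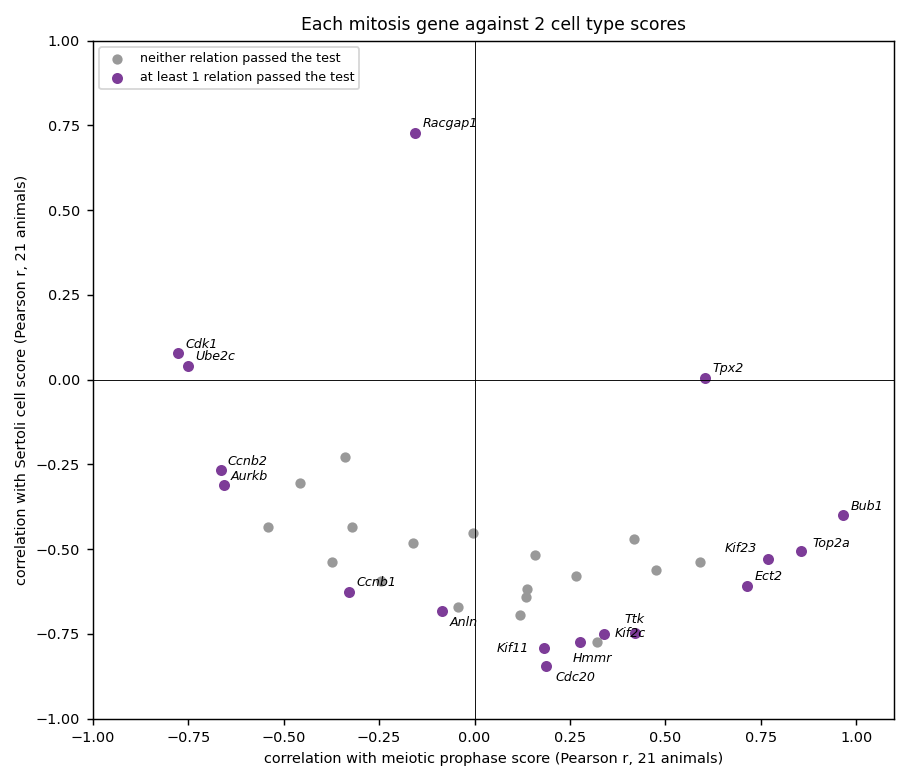
Pearson r over 21 animals of each of the 35 genes with the meiotic prophase score (horizontal) and the Sertoli cell score (vertical); purple marks genes with at least 1 relation called after adjustment over all genes and lists. Bub1 and Top2a lie far right (0.97 and 0.86), Cdk1 and Ube2c far left (-0.78 and -0.75), and Racgap1 stands alone at the top (0.73).

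**Figure D5:**
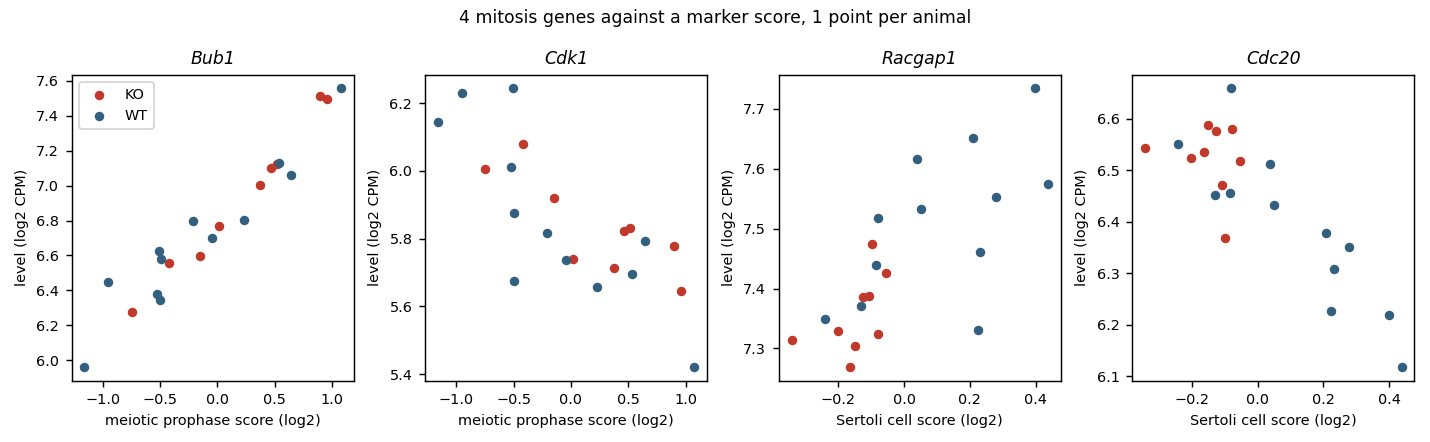
Level in log2 CPM of Bub1 and Cdk1 against the meiotic prophase score, and of Racgap1 and Cdc20 against the Sertoli cell score, 1 point per animal (red KO, blue WT). Bub1 is higher and Cdk1 lower at higher meiotic scores in both genotypes; Cdc20 is lower at higher Sertoli scores among WT animals, and KO animals sit at the low end of that score.

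Genes of the same pathway outside the set gave few calls. In each list the share called on average was below the 13.9% of all tested genes, and under stigmasterol it did not exceed the 7.21% of all tested genes. The calls below therefore describe single genes. Of 26 replication and licensing genes 1 was called higher in KO testes on average, Pcna, the sliding clamp of DNA polymerase, at 82.6 ± 6.33 CPM in KO testes and 68.9 ± 5.99 CPM in WT testes (SD, n = 9 and 12; log2 fold change 0.26, adjusted p = 0.00378, edgeR). All 26 had a fold change above 0, with a median log2 of 0.09, against 53.3% of all tested genes above 0. These signs come from the same animals and are not independent. The mean deviation of the 26 on the log2 scale was lowest in WT vehicle T81 (-0.35) and WT BPA T61 (-0.2). The count without these animals is not given here. Of 50 other mitotic genes 2 were called. Ncapd2, a condensin subunit, was lower, at 178 ± 30.0 CPM in KO testes and 242 ± 27.8 CPM in WT testes (-0.44, adjusted p = 0.00189), and Zwilch, a kinetochore protein, was higher (0.20, adjusted p = 0.0298), a call lost in 7 of 21 single-animal omissions. Ncapd2 was also lower under stigmasterol (-0.63, adjusted p = 0.0149), a call lost without KO stigmasterol T93. Another list held 14 genes of the anaphase-promoting complex: core subunits, the activator Fzr1 and the inhibitor Fbxo5. Of these 1 was called higher, Anapc11 (0.12, adjusted p = 0.046, edgeR), a call lost in 15 of 21 such omissions. Under stigmasterol it was 0.24 (adjusted p = 0.0392, edgeR), lost in 5 of 7. None of 16 G1 genes (cyclins, kinases, E2F factors and the Rb1 family), 8 CDK inhibitors or 14 mitotic transcription regulators was called on average. The smallest edgeR p in each was that of E2f2 (0.26, adjusted p = 0.0726), Cdkn2c (-0.27, adjusted p = 0.118) and E2f5 (0.19, adjusted p = 0.144).

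The same lists can be set against the mean of the 35 genes over animals, again as a description. Foxm1, the forkhead factor that drives late cell cycle genes, had r = 0.94, the highest of all 20219 other tested genes. Median r was 0.62 for the other mitotic genes, 0.51 for the replication genes and 0.35 for the G1 genes. It was 0.23 for the mitotic transcription regulators, 0.04 for the anaphase-promoting complex list and -0.01 for the CDK inhibitors. Over all other tested genes it was 0.01. Among the 14 transcription regulators r ran from -0.37 to 0.94, with Foxm1 at the top and Mybl2, another cell cycle factor, at 0.73.

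Promoters of such genes are known to carry a CHR element, read by the DREAM and MuvB complexes, and CCAAT boxes, read by NF-Y. RefSeq promoters (GRCm38.p6, 250 bases before to 50 after the start) were at hand for 30 of the 35 genes. The CHR letters TTTGAA, on either strand, were in 23 of the 30 (76.7%), against 20.2% of 27025 genes. CCAAT, on either strand, was also in 23 (76.7%), against 41.1%. Both were in 20 of 30 (66.7%), against 8.97%. The E2F letters TTCGCG or TTGGCG were in 8 (26.7%), against 12.1%. Letters of different motifs overlapped in the promoters of 4 of the 30 genes, and in Ube2c CCAAT matches on opposite strands also shared bases. The list was made of mitosis genes, so these shares describe it and are not tested. The stretches below, 120 bases before to 50 after the start, are those of genes from each block described above, and of Cdc20 and Racgap1, which stood at opposite ends of the relation with the Sertoli score. Capitals mark CHR and CCAAT letters on either strand.
Bub1 (chr2:127831810-127831979, minus strand): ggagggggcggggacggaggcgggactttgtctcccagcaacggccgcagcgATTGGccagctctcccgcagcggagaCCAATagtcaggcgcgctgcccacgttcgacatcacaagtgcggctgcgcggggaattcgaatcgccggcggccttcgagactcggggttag
Top2a (chr11:99024140-99024309, minus strand): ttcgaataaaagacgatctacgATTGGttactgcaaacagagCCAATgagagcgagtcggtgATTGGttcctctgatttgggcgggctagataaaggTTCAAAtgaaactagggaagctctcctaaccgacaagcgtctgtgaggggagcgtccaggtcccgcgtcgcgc
Cdk1 (chr10:69352863-69353032, minus strand): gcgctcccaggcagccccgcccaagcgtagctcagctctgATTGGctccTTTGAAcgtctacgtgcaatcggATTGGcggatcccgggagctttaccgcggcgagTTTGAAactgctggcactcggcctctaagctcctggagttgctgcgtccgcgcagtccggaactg
Ube2c (chr2:164769809-164769978, plus strand): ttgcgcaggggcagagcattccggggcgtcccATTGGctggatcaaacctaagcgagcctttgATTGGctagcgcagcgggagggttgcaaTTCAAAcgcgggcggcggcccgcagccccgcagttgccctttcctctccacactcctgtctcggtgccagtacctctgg
Cdc20 (chr4:118437294-118437463, minus strand): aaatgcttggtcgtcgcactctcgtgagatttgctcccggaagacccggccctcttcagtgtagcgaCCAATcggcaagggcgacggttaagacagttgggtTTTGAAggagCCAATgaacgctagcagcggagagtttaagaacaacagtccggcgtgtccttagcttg
Racgap1 (chr15:99651607-99651776, minus strand): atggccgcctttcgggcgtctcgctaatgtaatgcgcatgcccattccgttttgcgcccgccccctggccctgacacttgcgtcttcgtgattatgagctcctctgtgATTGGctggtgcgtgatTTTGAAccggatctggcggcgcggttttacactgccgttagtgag

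Promoters with CHR and CCAAT letters came from both blocks. Top2a, which followed the meiotic score, and Cdk1 and Ube2c, which ran against it, all held CHR and CCAAT letters near the start. In Top2a a CHR match began 23 bases before the start, in Ube2c 29 before, and in Cdk1 15 and 71 before. In Cdc20 it began 18 bases before the start, and in Racgap1 it lay after it, with its first base at base 6 of the transcript. The Bub1 window held 2 CCAAT boxes and no CHR letters, which says only that those letters are not in this window.

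The kit did not keep the strand, so reads from overlapping genes cannot be told apart. Exons of 10 of the 35 genes share bases with another annotated gene, over 5% of the exon length in 6: Kif20a (29.3%, with Cdc23), Ube2c (22.8%, with Tnnc2), Kif4 (15.1%, with Pdzd11), Ccna2 (12.5%, with Exosc9), Prc1 (11.1%, with Rccd1) and Plk1 (7.09%, with Gm44985). Kif4 and Ccnb2 also have a listed pseudogene copy. Levels of these genes are uncertain by the reads so shared. Racgap1, Bub1 and Cdk1 had no such overlap.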

How the data were processed

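Total RNA from testes was made into libraries with the Illumina TruSeq RNA kit, per the labels' protocols, which does not keep the strand. TopHat2 2.0.10, Bowtie2 2.1.0, Bowtie, CASAVA 1.8.2 and the mm10 genome are listed in the submitters' processing notes. The read counter and annotation release were not given in the sources used here. Deposited by the authors were raw read counts per gene, a normalized signal, that signal per kb of gene length, and, per the file headers, log2 fold changes and p-values for 4 comparisons of treatment with vehicle. Every test here started from the raw counts.

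Genes were kept by edgeR's filter (at least 10 counts in enough libraries and 15 in total), scaled by TMM and fitted in 1 model of 6 groups by edgeR 4.0.16 (quasi-likelihood, R 4.3.3). Each of 10 contrasts was adjusted by Benjamini-Hochberg over all 20254 tested genes at 0.05. Alternatives were DESeq2 1.42.0, limma-voom 3.58.1, other scaling factors and filters, fewer groups, libraries left out by Cdh16 level, and each animal left out in turn. Relations with marker scores used 100000 permutations of the animals across all 6 groups, so a called relation can include differences between groups. The fits were tested on simulated data. Replicate animals differed by more than counting error (chi-square per degree of freedom 9.9 to 82.7 over 27 pairs). The p-values of the contrasts set differences between groups against the spread between animals. The members, roles, marker lists and motifs were chosen with earlier results of these data known. Genes named were the called ones, the ends of each range, and 1 or 2 set for each role; Bub1 in full, the correlated pairs and the promoters shown were chosen after their values were seen.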

Additional observations from a re-analysis of the deposited data

Results flagged for a closer look

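In 7 of the 105 sets of 4 WT animals checked, 1 animal stood apart from the other 3. Chance gives about 1 in 20, so this number is near what chance gives. The sets are also not independent, since the genes vary together over the same animals. In WT vehicle T79 this held for Ccna2, a cyclin (126.7 CPM, against 85.9 to 92.2 in the other 3), Aurka, a spindle pole kinase (46.21, against 34.1 to 35.7), Incenp, the scaffold of the passenger complex (134.7, against 97.5 to 98.2), and Hmmr, a microtubule binder (45.03, against 32.5 to 34.6). In WT stigmasterol T78 it held for Ccnb2 (55.2, against 37.5 to 40.3), Mad2l1, a checkpoint protein (65.4, against 57.9 to 58.2), and Ndc80, a microtubule-binding kinetochore protein (54.03, against 44.9 to 45.6). In all 7 the animal was the high one, and these animals had the highest mean deviation of the 35 genes in their groups.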

How the results depend on the processing

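Of 177 alternatives for the count of called members, 170 left it within 1.5 times its value. With the 9 libraries where Cdh16 reached 10 CPM left out, 0 members were called under stigmasterol and 0 on average, with 1 KO animal left per treatment. With only the groups compared, 0 were called under stigmasterol. DESeq2 called 1 for BPA over vehicle in WT testes. Leaving out each animal in turn gave 0 to 1 called for KO over WT under vehicle, 1 to 2 on average and 0 to 3 for BPA over vehicle in WT testes, the higher value in each case without WT vehicle T79. Over all genes, KO over WT called 592 under vehicle, 174 under BPA, 1461 under stigmasterol and 2820 on average; without the Cdh16 libraries these were 56, 31, 85 and 257, and with only the groups compared 185, 110 and 327 within treatments. DESeq2 called 1413 under vehicle, 302 under BPA and 2207 under stigmasterol. For BPA over vehicle in WT testes edgeR called 0 genes, DESeq2 982, and edgeR without T79 1321. Log2 fold changes close to 0 changed sign. Averaged over treatments, leaving out each animal gave -0.0775 to 0.0112 for Cdk1, -0.0357 to 0.0337 for Plk1, -0.066 to 0.0108 for Aurkb and -0.0182 to 0.0785 for Bub1b. Without the Cdh16 libraries the log2 fold changes were 0.0404 for Plk1 on average, 0.0313 for Cenpf under BPA (KO over WT) and 0.123 for Bub1 (BPA over vehicle in KO testes). The cause was not tested. Among 832 alternatives for single genes, 44 lost a call, 3 gained one, 16 changed sign and 769 did neither. No paired analysis was possible because every animal carries its own number and no number is shared between groups. Groups of 3 and 4 animals limit what could be called: the median standard error of the 35 genes was 0.13 on the log2 scale for KO over WT within 1 treatment and 0.07 on average.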
